A study of Mus musculus with 9 samples.

Results

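L1cam, Gja1, Pcdh7 and Angptl4 are 4 of the 11046 genes in a table of raw read counts from 3 mouse tumour cell lines in culture, a study whose title sets the electrophysiological impact of brain metastases beside their transcriptomes. They were chosen by name, as genes known from studies of brain colonisation that encode adhesion, gap junction and secreted vascular proteins, and all 4 were found. The line 482N1 is labelled as non-small cell lung cancer, B16F10-BrM as brain metastatic BRAF mutant melanoma, and E0771-BrM as triple negative breast cancer. All 3 lines carried the genotype label WT, received no treatment, and were grown with fetal bovine serum, penicillin/streptomycin and amphotericin B. The medium was DMEM for 482N1 and B16F10-BrM, but RPMI 1640 buffered by HEPES for E0771-BrM, whose line and medium therefore cannot be told apart. Each tumour type was represented by 1 line, and no brain, endothelial or astrocyte cells were part of the design. Poly(A)-selected, stranded libraries were sequenced, with 3 libraries (A, B and C) per line. Nothing in the labels states that the libraries of a line are independent cultures, so p-values measure the spread between libraries, which may be technical.

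L1CAM is a cell surface adhesion molecule of the immunoglobulin superfamily that guides axons. In models of brain metastasis it lets tumour cells stretch along the outer surface of capillaries, and it can be cleaved by plasmin. Connexin 43, the product of Gja1, forms channels that join the cytoplasm of neighbouring cells and is abundant in astrocytes. Protocadherin 7, from Pcdh7, is a homophilic adhesion molecule, and in breast and lung cancer models it promotes the assembly of connexin 43 channels between tumour cells and astrocytes, through which the second messenger cGAMP passes. ANGPTL4 is a secreted protein that inhibits lipoprotein lipase and loosens junctions between endothelial cells, and its gene is induced by hypoxia, fatty acids and transforming growth factor beta.

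The 250 bases before the annotated start were taken from RefSeq on build GRCm38.p6 for L1cam, Gja1 and Pcdh7, and the Angptl4 promoter was not analysed here. They show the sequence in front of genes whose levels differed among the lines. The sequences are printed 5′ to 3′ on the gene's strand, with motif matches in capitals. L1cam has a pair of annotated starts, and the downstream one is shown. Gja1 is at chr10:56377050-56377299 (plus strand), L1cam at chrX:73880791-73881040 (minus strand) and Pcdh7 at chr5:57717831-57718080 (plus strand).
Gja1: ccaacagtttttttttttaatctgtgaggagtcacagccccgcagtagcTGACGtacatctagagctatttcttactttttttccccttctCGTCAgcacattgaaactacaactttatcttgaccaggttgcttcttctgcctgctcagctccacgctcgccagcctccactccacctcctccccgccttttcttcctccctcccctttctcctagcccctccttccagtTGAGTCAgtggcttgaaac
L1cam: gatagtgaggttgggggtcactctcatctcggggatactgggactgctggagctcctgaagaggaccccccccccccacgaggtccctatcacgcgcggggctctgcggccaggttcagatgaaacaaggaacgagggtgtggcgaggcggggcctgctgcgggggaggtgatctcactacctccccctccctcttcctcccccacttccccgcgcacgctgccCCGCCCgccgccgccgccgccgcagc
Pcdh7: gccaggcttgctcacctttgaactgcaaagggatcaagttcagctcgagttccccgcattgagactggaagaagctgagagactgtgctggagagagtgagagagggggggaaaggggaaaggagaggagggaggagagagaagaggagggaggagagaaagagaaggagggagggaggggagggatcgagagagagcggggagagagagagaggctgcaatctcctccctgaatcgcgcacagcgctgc
Both strands were searched for 6 motifs, namely TGANTCA (AP-1), GGGCGG (GC box), ACGTG (hypoxia response core), GGAATG (TEAD), CACGTG (E-box, whose letters contain ACGTG) and TGACG (core of the cAMP response element). The Gja1 promoter held 1 AP-1 match, TGAGTCA, 19 bases before the start, and 2 TGACG matches at 201 and 159 bases, the latter on the opposite strand. Of 32851 RefSeq promoter windows of this length, 6.75% held TGANTCA and 17.8% held TGACG. The L1cam window held 1 GC box on the opposite strand, 26 bases before the start, and 32.7% of all windows held this motif. None of the 6 motifs was found in the Pcdh7 window. The GC content was 69.6% for L1cam, 58.4% for Pcdh7 and 50.0% for Gja1, against a median of 52.4% over all windows. These matches describe the letters only, and no binding was measured.

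Total counts were 7332390 to 9293348 per library, and the markers that could be measured followed the labels in part. All 5 measured melanocyte markers of 8 were higher in B16F10-BrM than in both other lines, with a summed level of 24630 to 25484 CPM there (read counts scaled to a common library size, with TMM normalisation). That sum was 2.77 to 28.1 CPM in 482N1 and 103 to 162 CPM in E0771-BrM, and it was lowest in library B of both lines. The keratins Krt8 and Krt18, 2 of 5 simple epithelial markers, summed to 7289 to 7908 CPM in 482N1, 171 to 208 CPM in E0771-BrM and 0 to 0.125 CPM in B16F10-BrM. Of the lung epithelial markers 2 of 8 were measured (Abca3 and Foxa1), summing to 61.6 to 64.1 CPM in 482N1, and Nkx2-1 and Sftpc were not analysed here. Of the mammary markers 4 of 8 were measured, among them Foxa1, which is also on the lung list. All 4 were lower in E0771-BrM than in 482N1 and higher than in B16F10-BrM. For Erbb2 the difference from B16F10-BrM was near the threshold of 0.05 (edgeR adjusted p = 0.0457). It was not called by DESeq2 (adjusted p = 0.0601) or limma-voom (adjusted p = 0.082).

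The 3 lines carried different members of the set. 482N1 had Angptl4, Pcdh7 and a lower level of Gja1, with 8 counts of L1cam in 3 libraries. B16F10-BrM had Pcdh7 and L1cam, and not a single count of Gja1 or Angptl4. E0771-BrM had Gja1 and L1cam, a low level of Angptl4, and 1 count of Pcdh7. Each gene differed between any 2 lines, by edgeR's quasi-likelihood test with Benjamini-Hochberg adjustment over 11037 genes at an adjusted p threshold of 0.05, and the libraries of no 2 lines overlapped for any of the 4 genes. Differences of this kind were common among these lines. In B16F10-BrM against 482N1, 1 member was higher and 3 were lower, where 38% of all genes tested were higher and 39.9% lower (77.8% in all), and 78.7% did not overlap. In E0771-BrM against 482N1, 2 were higher and 2 lower, where 37.7% of all genes were higher and 40.4% lower (78.1% in all), and 78.5% did not overlap. In E0771-BrM against B16F10-BrM, 3 were higher and 1 was lower, where 37.2% were higher and 36.5% lower (73.7% in all), and 75.5% did not overlap. The joint test over the 3 lines called all 4 members and 92.1% of all genes. All 4 members differed in all 3 pairwise comparisons, as did 47.4% of all genes. When the test was set against a 2-fold change (glmTreat), the 4 members were called in each comparison, against 31.5%, 30.3% and 26.3% of all genes in the same order. The members were chosen with earlier results of these data known, so setting them against all genes is a description and not a test. The median log2 fold change of all genes was between -0.04 and 0.02 in these comparisons. The shares and medians of all genes given here also apply beside the counts of list genes below.

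**Figure D1:**
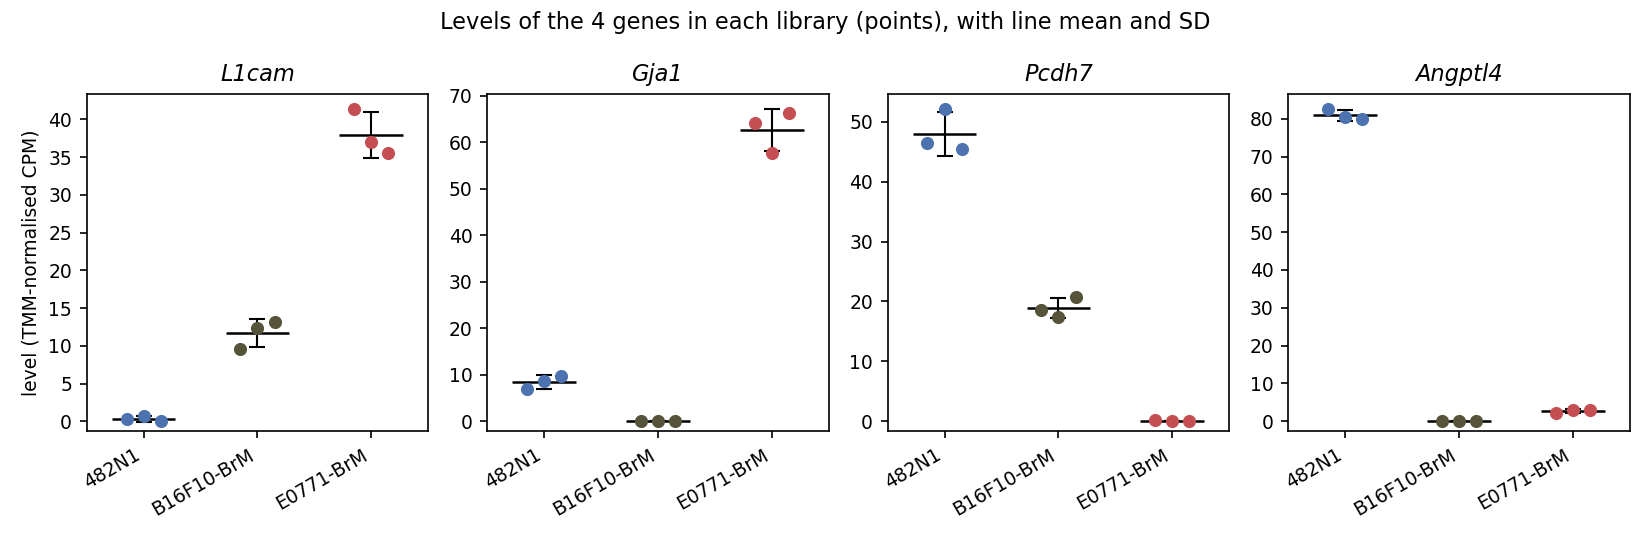
Level of each gene (TMM-normalised CPM, linear axis, a separate scale per panel) in each of the 9 libraries, as points, with the mean of each line as a horizontal bar and its SD of 3 libraries as whiskers. L1cam and Gja1 were highest in E0771-BrM, Pcdh7 and Angptl4 were highest in 482N1, and Gja1 and Angptl4 lay at 0 in all 3 libraries of B16F10-BrM.

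L1cam was highest in E0771-BrM, intermediate in B16F10-BrM and close to absent in 482N1. E0771-BrM libraries A, B and C had 326, 308 and 285 counts, or 38.0 ± 3.04 CPM (SD, n = 3). B16F10-BrM libraries had 92, 98 and 113 counts, or 11.7 ± 1.87 CPM. 482N1 libraries had 2, 6 and 0 counts, or 0.327 ± 0.366 CPM. The 3 lines were thus separate, with every E0771-BrM library above every B16F10-BrM library and both above 482N1. L1cam was 3.27-fold higher in E0771-BrM than in B16F10-BrM (log2 fold change 1.70 ± 0.16 SE, edgeR adjusted p = 1.29e-13). B16F10-BrM exceeded 482N1 in L1cam (log2 fold change 5.06 ± 0.57 SE, edgeR adjusted p = 4.73e-18) and so did E0771-BrM (log2 fold change 6.77 ± 0.56 SE, edgeR adjusted p = 1.31e-25). The size of the differences from 482N1 rested on 8 counts, and the ratio of levels was 34.7 (95% counting interval 17.4 to 81.1) for B16F10-BrM and 114 (57.4 to 264) for E0771-BrM. Library B of 482N1 held 6 of them. Without it the log2 fold changes were 6.35 and 8.05, and without library C of 482N1, which held none, they were 4.51 and 6.21. When library B alone stood for 482N1 and for E0771-BrM, the values were 3.98 and 5.65. Arhgap4 overlaps 1.36% of the exon bases of L1cam on the same strand in build GRCm38. Some reads may thus be shared, and what part of them was not tested. The level in 482N1 was 0.861% of that in E0771-BrM. The melanocyte genes Dct, Tyrp1 and Pmel stood in 482N1 at 0.0571% to 0.0941% of their B16F10-BrM level. Those shares refer to another line, and no marker gene was set against E0771-BrM in this way. Dct was lowest in library B of 482N1, with 14 counts against 142 and 148, where L1cam was highest, and the part of such low-level RNA in these values was not tested.

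Of the other L1 family genes only Nrcam, a neuronal adhesion molecule that binds ankyrins as L1CAM does, was measured, and unlike L1cam it was far higher in B16F10-BrM than in E0771-BrM. Nrcam stood at 139 ± 13.0 CPM in B16F10-BrM, 2.11 ± 1.09 CPM in E0771-BrM and 0.505 ± 0.233 CPM in 482N1, with no overlap between lines. It was lower in E0771-BrM than in B16F10-BrM by a log2 fold change of -6.03 ± 0.23 SE (edgeR adjusted p = 2.17e-32), where L1cam was higher. Chl1 and Nfasc were not analysed here.

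Genes for proteins that bind, anchor or cut L1CAM were measured for 15 of 17 listed. Against 482N1, 3 were higher and 11 lower in B16F10-BrM (median log2 fold change -0.77), and 8 were higher and 5 lower in E0771-BrM (median 0.46). In E0771-BrM against B16F10-BrM, 12 were higher and 3 lower (median 0.64). Among all genes, 39.9% were lower in B16F10-BrM against 482N1, and 37.2% were higher in E0771-BrM against B16F10-BrM. The ankyrins, which tie L1CAM to the spectrin skeleton, differed between lines. Ank3 stood at 86.4 ± 7.29 CPM in 482N1 and 136 ± 7.08 CPM in E0771-BrM, with 2 counts in all of B16F10-BrM. Ank2 stood at 14.8 ± 4.19 CPM in B16F10-BrM and 22.2 ± 1.98 CPM in E0771-BrM, with 1 count in all of 482N1. E0771-BrM, the line with the highest L1cam, was thus the one with both ankyrins above a few counts. Fgfr1, a receptor that L1CAM can engage, was also highest there, at 44.0 ± 2.09 CPM against 1.21 ± 0.0537 CPM in 482N1 and 1 count in B16F10-BrM. Egfr followed the same order, with 16.4 ± 1.78, 5.52 ± 1.61 CPM and 1 count. Nrp1, the neuropilin co-receptor, went the other way and was highest in B16F10-BrM at 36.5 ± 3.05 CPM, with 11.5 ± 1.93 CPM in 482N1 and 6 counts in E0771-BrM. Among integrin and protease partners the differences were smaller. Itgb1 was 548 ± 25.1 CPM in 482N1, 321 ± 12.3 CPM in B16F10-BrM and 566 ± 13.9 CPM in E0771-BrM, and 482N1 and E0771-BrM did not differ beyond the spread (edgeR adjusted p = 0.518). Adam10, a sheddase of L1CAM, ranged from 52.5 ± 4.78 CPM in B16F10-BrM to 107 ± 11.8 CPM in 482N1.

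The plasmin system, which can cut L1CAM, was represented by 4 of 9 listed genes, all 4 lower in B16F10-BrM than in both other lines. In E0771-BrM against 482N1, 2 were higher and 2 lower. Lower levels in B16F10-BrM were found for 39.9% of all genes against 482N1 and 37.2% against E0771-BrM. Plau, the urokinase activator of plasminogen, stood at 25.5 ± 0.799 CPM in E0771-BrM, 1.53 ± 0.656 CPM in 482N1 and 0.656 ± 0.208 CPM in B16F10-BrM. The last 2 differed at an edgeR adjusted p of 0.00862, which rose to 0.134 without library B of 482N1. Plaur, the urokinase receptor, and Plat, the tissue activator, were instead highest in 482N1, at 56.8 ± 5.81 and 6.48 ± 1.44 CPM. In E0771-BrM they stood at 11 ± 0.757 and 3.39 ± 1.60 CPM, and in B16F10-BrM at 1.63 ± 0.828 and 0.498 ± 0.337 CPM. The serpins that shield L1CAM from plasmin in brain metastasis models, Serpini1 and Serpinb2, were not analysed here.

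**Figure D2:**
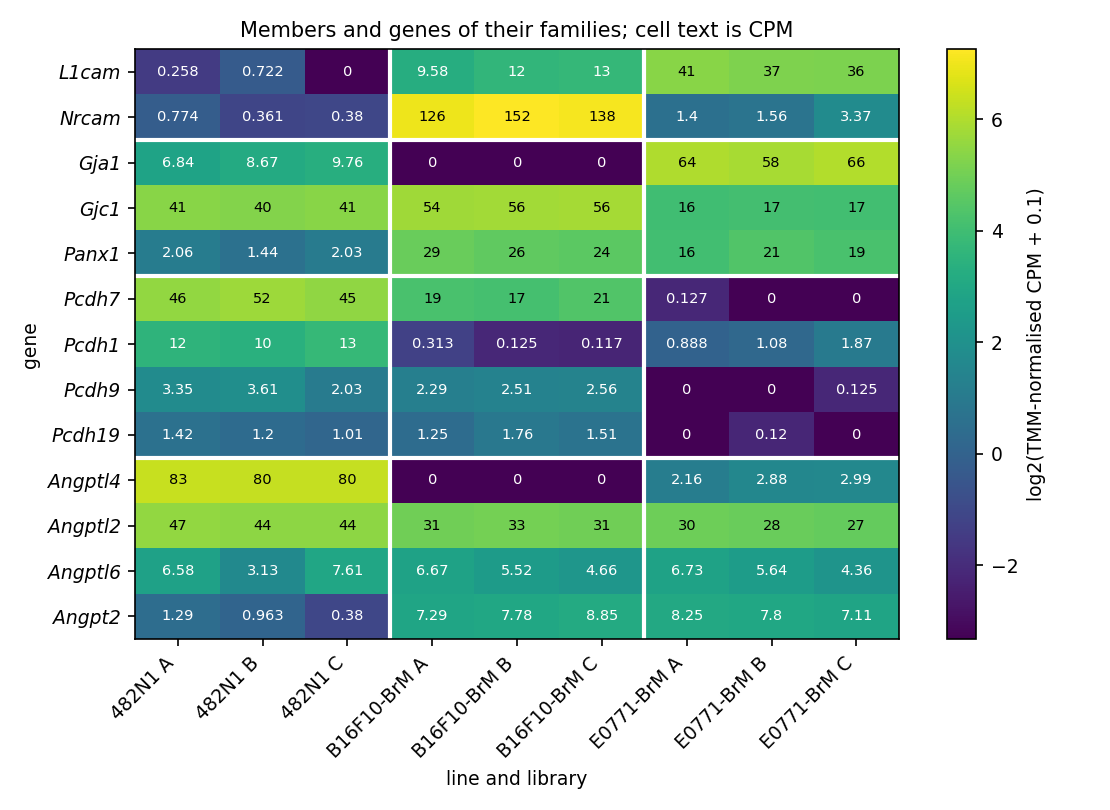
Heat map of each member and of named genes of its family (rows) in each library (columns), coloured by log2(TMM-normalised CPM + 0.1), with the CPM written in each cell and white lines between families and cell lines. Gja1 and Angptl4 were at 0 in all 3 B16F10-BrM libraries, while Gjc1 was measured in every library.

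Gja1 was highest in E0771-BrM, lower in 482N1 and without a count in B16F10-BrM. E0771-BrM libraries A, B and C had 505, 481 and 532 counts, or 62.7 ± 4.47 CPM (SD, n = 3). 482N1 libraries had 53, 72 and 77 counts, or 8.42 ± 1.48 CPM. B16F10-BrM libraries had 0, 0 and 0 counts, which at these depths allows up to 0.115 CPM over the 3 libraries (a floor of 3 counts). Libraries of E0771-BrM lay far above those of 482N1, with no overlap. Gja1 was 7.43-fold higher in E0771-BrM than in 482N1 (log2 fold change 2.89 ± 0.15 SE, edgeR adjusted p = 1.91e-23). Against the floor in B16F10-BrM, the level of Gja1 was at least 73.5-fold higher for 482N1 (edgeR adjusted p = 2.49e-19) and at least 546-fold higher for E0771-BrM (edgeR adjusted p = 2.18e-31). Of all genes tested, 1.84% had no count in B16F10-BrM, and Gja1 and Angptl4 were 2 of these 203 genes. The spread of Gja1 among libraries was 17.5% of the mean in 482N1 and 7.13% in E0771-BrM, where counting error alone would give 12.2% and 4.45%.

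Among the other connexins and pannexins, 3 of 22 listed genes were measured, and Gjc1 and Panx1 are described here. Gjc1, which encodes connexin 45, stood at 55.3 ± 1.00 CPM in B16F10-BrM, 40.6 ± 0.872 CPM in 482N1 and 16.6 ± 0.536 CPM in E0771-BrM. It was therefore highest where Gja1 had no count, and lowest where Gja1 was highest, with a log2 fold change of -1.74 ± 0.11 SE in E0771-BrM against B16F10-BrM (edgeR adjusted p = 3.41e-19). Panx1, a pannexin that forms channels to the outside of the cell, stood at 26.2 ± 2.40 CPM in B16F10-BrM, 18.5 ± 2.07 CPM in E0771-BrM and 1.85 ± 0.348 CPM in 482N1. Gjb2, which encodes connexin 26, was not analysed here.

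Partners of connexin 43 were measured for 17 of 19 listed genes. Against 482N1, 3 were higher and 10 lower in B16F10-BrM (median log2 fold change -0.34), and 2 were higher and 13 lower in E0771-BrM (median -1.36). In E0771-BrM against B16F10-BrM, 4 were higher and 11 lower (median -0.62). E0771-BrM, the line with the highest Gja1, was thus lower in most of this list against either other line. Over all genes tested, 40.4% were lower in E0771-BrM against 482N1 and 36.5% against B16F10-BrM. Tjp1, the scaffold ZO-1 that binds the tail of connexin 43, stood at 79.2 ± 9.83 CPM in 482N1, 23.1 ± 4.99 CPM in B16F10-BrM and 25.8 ± 1.11 CPM in E0771-BrM. The last 2 did not differ beyond the spread (edgeR adjusted p = 0.246). Nedd4, a ubiquitin ligase that acts on connexin 43, went from 1985 ± 96.1 CPM in 482N1 to 949 ± 31.3 in B16F10-BrM and 249 ± 10.6 in E0771-BrM. Cav1, the caveolae coat protein, had the rank order of Gja1, at 58.1 ± 1.13 CPM in E0771-BrM, 51.5 ± 3.90 CPM in 482N1 and 2.11 ± 0.228 CPM in B16F10-BrM. For Cav1, E0771-BrM and 482N1 did not differ beyond the spread (edgeR adjusted p = 0.113). Prkca, a kinase that phosphorylates connexin 43, was also lowest in B16F10-BrM, at 10.7 ± 1.77 CPM against 95.7 ± 1.98 in 482N1 and 35.5 ± 1.69 in E0771-BrM.

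Pcdh7 was highest in 482N1, lower in B16F10-BrM and all but absent in E0771-BrM. 482N1 libraries A, B and C had 360, 433 and 358 counts, or 48.0 ± 3.62 CPM (SD, n = 3). B16F10-BrM libraries had 178, 139 and 178 counts, or 18.9 ± 1.68 CPM. E0771-BrM libraries had 1, 0 and 0 counts. The 3 lines did not overlap, and the lowest 482N1 library, at 45.4 CPM, was above the highest B16F10-BrM library, at 20.7 CPM. Pcdh7 was 2.54-fold lower in B16F10-BrM than in 482N1 (log2 fold change -1.34 ± 0.12 SE, edgeR adjusted p = 9.54e-14). On the single count in E0771-BrM, the level in 482N1 was 1165 times as high (95% counting interval 209 to 46042, edgeR adjusted p = 1.39e-30). The level in B16F10-BrM was 459 times as high (81.9 to 18154, edgeR adjusted p = 6.80e-25). Without library A of E0771-BrM, which held that count, the line had none. At most 1 count in E0771-BrM was found for 149 genes, or 1.35% of those tested. An antisense transcript, 4932441J04Rik, overlaps 21.1% of the exon bases of Pcdh7 on build GRCm38, and whether the counting used strand is not given in the sources used here, so reads of these 2 genes may not be separated.

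Gja1 and Pcdh7, whose products act together in carcinoma to astrocyte coupling, did not go together across these lines. The line with most Gja1 had 1 count of Pcdh7, and in B16F10-BrM Pcdh7 was measured without Gja1. Only 482N1 had counts of both genes in all 3 libraries.

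Of the other delta protocadherins, 3 of 8 listed genes were measured, and all 3 were lower in E0771-BrM than in 482N1. Pcdh9 stood at 3.0 ± 0.849 CPM in 482N1 and 2.45 ± 0.144 CPM in B16F10-BrM, with 1 count in E0771-BrM. Pcdh19 stood at 1.21 ± 0.203 and 1.51 ± 0.253 CPM in the same lines, again with 1 count in E0771-BrM. For both genes 482N1 and B16F10-BrM did not differ beyond the spread (edgeR adjusted p = 0.418 and 0.531). Pcdh1 had another order, with 11.8 ± 1.48 CPM in 482N1, 1.28 ± 0.520 CPM in E0771-BrM and 0.185 ± 0.111 CPM in B16F10-BrM. Cdh2, the classical N-cadherin, was likewise near absent in E0771-BrM, at 0.536 ± 0.141 CPM against 90.4 ± 9.45 CPM in 482N1 and 90.9 ± 6.65 CPM in B16F10-BrM. Its log2 fold change in E0771-BrM against 482N1 was -7.36 ± 0.39 SE (edgeR adjusted p = 5.67e-35), while 482N1 and B16F10-BrM did not differ beyond the spread (edgeR adjusted p = 0.934).

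Protein phosphatase 1 and SET, which bind the tail of protocadherin 7, were encoded by 4 listed genes, all measured in every line. Set ranged from 564 ± 32.3 CPM in 482N1 to 708 ± 20.5 CPM in B16F10-BrM, with 665 ± 37.6 CPM in E0771-BrM. Ppp1ca ranged from 188 ± 6.79 CPM in B16F10-BrM to 392 ± 29.4 CPM in E0771-BrM. The range among lines was therefore small beside that of Pcdh7 itself.

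The route from cGAMP to interferon and NF-kB signalling was measured for 10 of 15 listed genes, where 2 of the 15 are older symbols of Cgas and Sting1. The list and its tallies include Enpp1, which breaks cGAMP down. Against 482N1, 3 were higher and 5 lower in B16F10-BrM (median log2 fold change -0.32), and 7 were higher and 3 lower in E0771-BrM (median 1.03). In E0771-BrM against B16F10-BrM, 7 were higher and 1 lower (median 0.98). The share of all genes higher in E0771-BrM was 37.7% against 482N1 and 37.2% against B16F10-BrM. Cgas, the enzyme that makes cGAMP, stood at 2.00 ± 0.324 CPM in 482N1, 24.2 ± 2.65 CPM in B16F10-BrM and 19.4 ± 1.79 CPM in E0771-BrM. Sting1, the receptor of cGAMP, stood at 10.8 ± 2.2, 35.3 ± 3.34 and 39.5 ± 8.54 CPM in the same order. Between B16F10-BrM and E0771-BrM, Cgas was near the threshold (edgeR adjusted p = 0.040) and was not called by DESeq2 (adjusted p = 0.0704). Sting1 did not differ there beyond the spread (edgeR adjusted p = 0.247). Enpp1, which hydrolyses cGAMP outside the cell, was by contrast 133 ± 9.35 CPM in 482N1, 2.82 ± 1.26 CPM in B16F10-BrM and 16.8 ± 2.66 CPM in E0771-BrM. 482N1, the line with counts of both Gja1 and Pcdh7 in every library, was thus the lowest in Cgas and Sting1 and the highest in Enpp1.

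Angptl4 was highest in 482N1, low in E0771-BrM and without a count in B16F10-BrM. 482N1 libraries A, B and C had 640, 668 and 630 counts, or 80.9 ± 1.42 CPM (SD, n = 3). E0771-BrM libraries had 17, 24 and 24 counts, or 2.68 ± 0.453 CPM. B16F10-BrM libraries had 0, 0 and 0 counts, with the same upper limit of 0.115 CPM as Gja1. All 482N1 libraries lay far above all E0771-BrM libraries, with no overlap. Angptl4 was 30.2-fold lower in E0771-BrM than in 482N1 (log2 fold change -4.91 ± 0.20 SE, edgeR adjusted p = 2.31e-30). Set against the B16F10-BrM floor, the level of Angptl4 was at least 705-fold higher for 482N1 (edgeR adjusted p = 1.10e-33) and at least 23.4-fold higher for E0771-BrM (edgeR adjusted p = 3.06e-12). Its spread among libraries was 1.76% of the mean in 482N1 and 16.9% in E0771-BrM, below the 3.93% and 21.5% that counting error alone would give. The level in E0771-BrM was 3.31% of that in 482N1. Krt18, abundant in 482N1 with 99989 counts, had 9 counts in E0771-BrM, or 0.009% of its 482N1 level. Krt8, the other measured keratin, stood at 3512 ± 132 CPM in 482N1 and 188 ± 18.7 CPM in E0771-BrM. The part of low-level RNA from other lines in the Angptl4 counts of E0771-BrM was not tested.

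Of the other angiopoietin-like and angiopoietin genes, 3 of 9 listed were measured, and their range among lines was smaller than that of Angptl4. Angptl6 was 5.77 ± 2.34 CPM in 482N1, 5.62 ± 1.01 CPM in B16F10-BrM and 5.58 ± 1.18 CPM in E0771-BrM, and passed the test in no comparison (edgeR adjusted p of 0.882 to 0.955). Angptl2 stood at 45 ± 1.69 CPM in 482N1, 31.6 ± 1.24 CPM in B16F10-BrM and 28.4 ± 1.76 CPM in E0771-BrM. Angpt2, which destabilises vessels as an antagonist of the receptor TIE2, was lowest in 482N1, at 0.878 ± 0.461 CPM, where Angptl4 was highest. It stood at 7.98 ± 0.800 CPM in B16F10-BrM and 7.72 ± 0.575 CPM in E0771-BrM, which did not differ beyond the spread (edgeR adjusted p = 0.853).

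Lpl itself, the lipase that ANGPTL4 inhibits, was not analysed here, and 4 of 11 listed lipase partners were measured. Furin, a proprotein convertase that cuts ANGPTL4, was highest in 482N1 at 135 ± 13.6 CPM, against 30.3 ± 2.25 CPM in B16F10-BrM and 54.5 ± 2.30 CPM in E0771-BrM, so its order was that of Angptl4. Lmf1 and Sel1l, which mature the lipase in the endoplasmic reticulum, were instead highest in B16F10-BrM. Lmf1 stood at 25.1 ± 1.87 CPM there, 16 ± 1.67 CPM in 482N1 and 8.89 ± 1.46 CPM in E0771-BrM. Sel1l stood at 116 ± 6.53, 51.3 ± 2.28 and 75.8 ± 1.63 CPM in the same lines.

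Genes known to induce Angptl4 were measured for 14 of 17 listed. Against 482N1, 3 were higher and 10 lower in B16F10-BrM (median log2 fold change -0.60), and 2 were higher and 7 lower in E0771-BrM (median -0.61). In E0771-BrM against B16F10-BrM, 6 were higher and 6 lower (median -0.15). The share of all genes lower than in 482N1 was 39.9% for B16F10-BrM and 40.4% for E0771-BrM. Hif1a, the oxygen-regulated subunit of the hypoxia factor, had the rank order of Angptl4 over a narrower range, with 199 ± 7.96 CPM in 482N1, 136 ± 4.53 CPM in E0771-BrM and 98.3 ± 2.59 CPM in B16F10-BrM. Tgfb1 had the same rank order with a wider range, at 21.3 ± 3.55, 4.68 ± 2.23 and 1.56 ± 0.823 CPM. Tgfb2 was the reverse, at 1.89 ± 0.439 CPM in 482N1, 9.54 ± 0.334 CPM in E0771-BrM and 17.5 ± 0.698 CPM in B16F10-BrM. Smad3, which carries the signal of both ligands, stood at 142 ± 6.07 CPM in 482N1, 29.4 ± 0.230 CPM in B16F10-BrM and 19.2 ± 0.960 CPM in E0771-BrM. Ppard, a fatty acid receptor, stood at 28.6 ± 4.76 CPM in 482N1, and its levels of 17.4 ± 0.629 CPM in B16F10-BrM and 16.6 ± 2.09 CPM in E0771-BrM did not differ beyond the spread (edgeR adjusted p = 0.652).

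**Figure D3:**
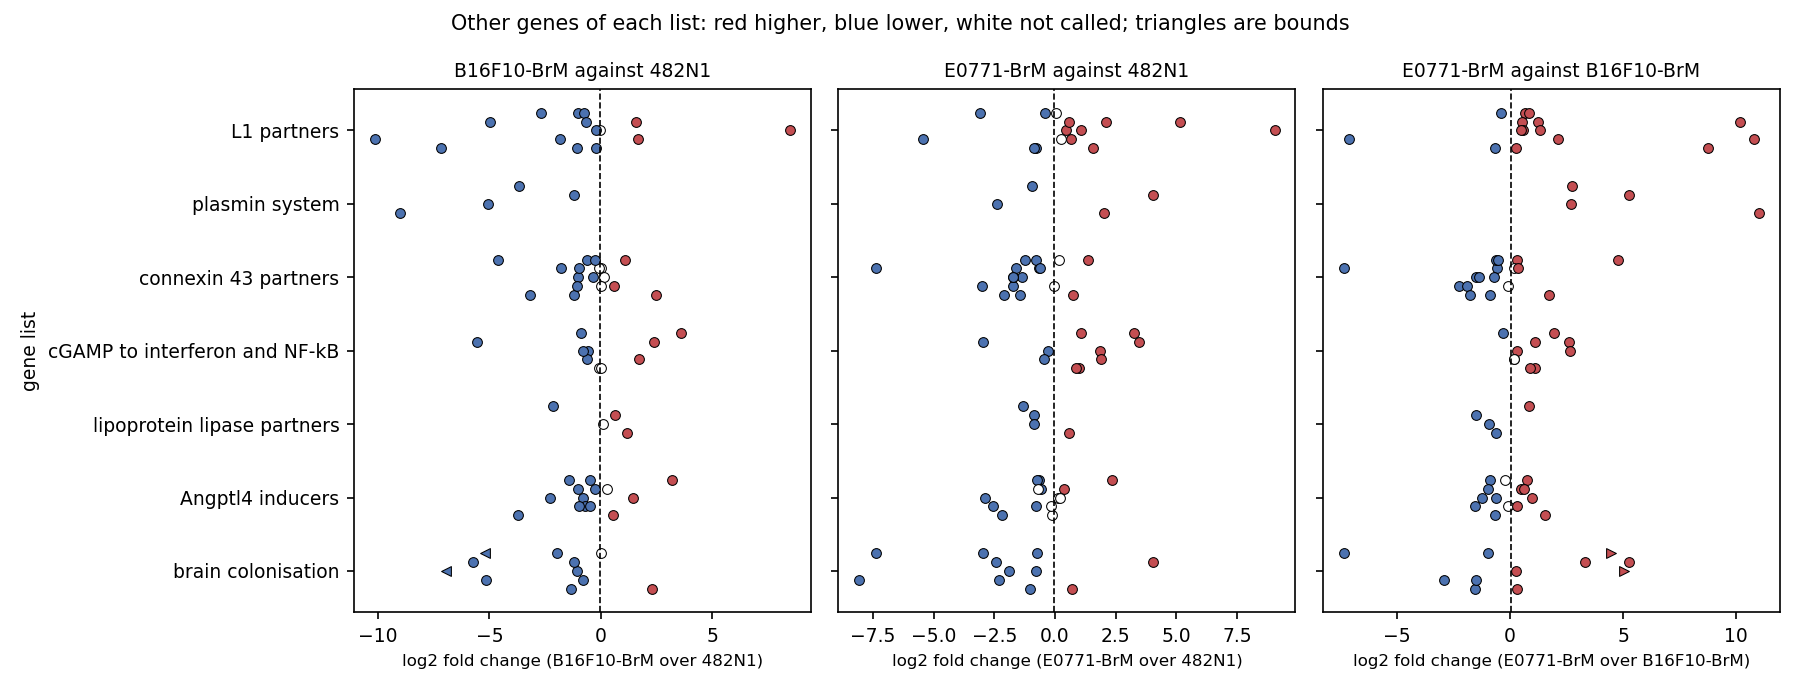
Log2 fold changes of the other genes of the lists named on the y axis (rows, 1 point per gene) in the 3 pairwise comparisons (panels). Red is for higher, blue for lower and white for not called at an edgeR adjusted p of 0.05. The gene family lists, the Pcdh7 partners and the cell type markers are not drawn. Triangles mark folds against a floor of 3 counts. Genes with 1 to 3 counts in a line are drawn at the log2 ratio of levels, without a prior count. All 4 plasmin system genes lay below 0 in B16F10-BrM against 482N1.

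The other brain colonisation genes were measured for 11 of 26 listed. Against 482N1, 1 was higher and 9 lower in B16F10-BrM (median log2 fold change -1.34), and 2 were higher and 9 lower in E0771-BrM (median -1.89). In E0771-BrM against B16F10-BrM, 6 were higher and 5 lower (median 0.28). Over all genes, 39.9% were lower than in 482N1 for B16F10-BrM and 40.4% for E0771-BrM. Hbegf, a ligand of the epidermal growth factor receptor, stood at 326 ± 30.6 CPM in 482N1, 61.1 ± 2.91 CPM in E0771-BrM and 6.18 ± 1.38 CPM in B16F10-BrM. Ptgs2, the cyclooxygenase COX2, stood at 14.1 ± 0.199 and 3.8 ± 0.980 CPM in the same first 2 lines, and had no count in B16F10-BrM. Both genes thus had the rank order of Angptl4. Itgb4, a subunit of the laminin receptor, stood at 48.3 ± 3.77 CPM in 482N1, 1.39 ± 0.841 CPM in B16F10-BrM and 0.166 ± 0.0759 CPM in E0771-BrM, which is the rank order of Pcdh7.

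Levels of different genes can be set side by side only per length, and lengths were taken from the GENCODE M21 annotation of build GRCm38, while the counts rest on GRCm39. Per kb of merged exon length, Angptl4 was the highest member in 482N1 at 22.9 ± 0.402 CPM per kb, followed by Pcdh7 at 4.52 ± 0.342, Gja1 at 0.821 ± 0.144 and L1cam at 0.0445 ± 0.0498. In E0771-BrM the level was 6.11 ± 0.436 CPM per kb for Gja1 and 5.17 ± 0.414 for L1cam. Angptl4 stood at 0.756 ± 0.128 there and Pcdh7 at 0.00399 ± 0.00691. In B16F10-BrM, Pcdh7 at 1.78 ± 0.158 and L1cam at 1.59 ± 0.254 CPM per kb lay within their spread. Per kb of the longest coding transcript their order turned, with L1cam at 2.28 ± 0.364 and Pcdh7 at 2.15 ± 0.191. On that scale Gja1 in E0771-BrM stood at 19.7 ± 1.41 CPM per kb and L1cam at 7.4 ± 0.594, so the gap between these genes depended on the length used.

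**Figure D4:**
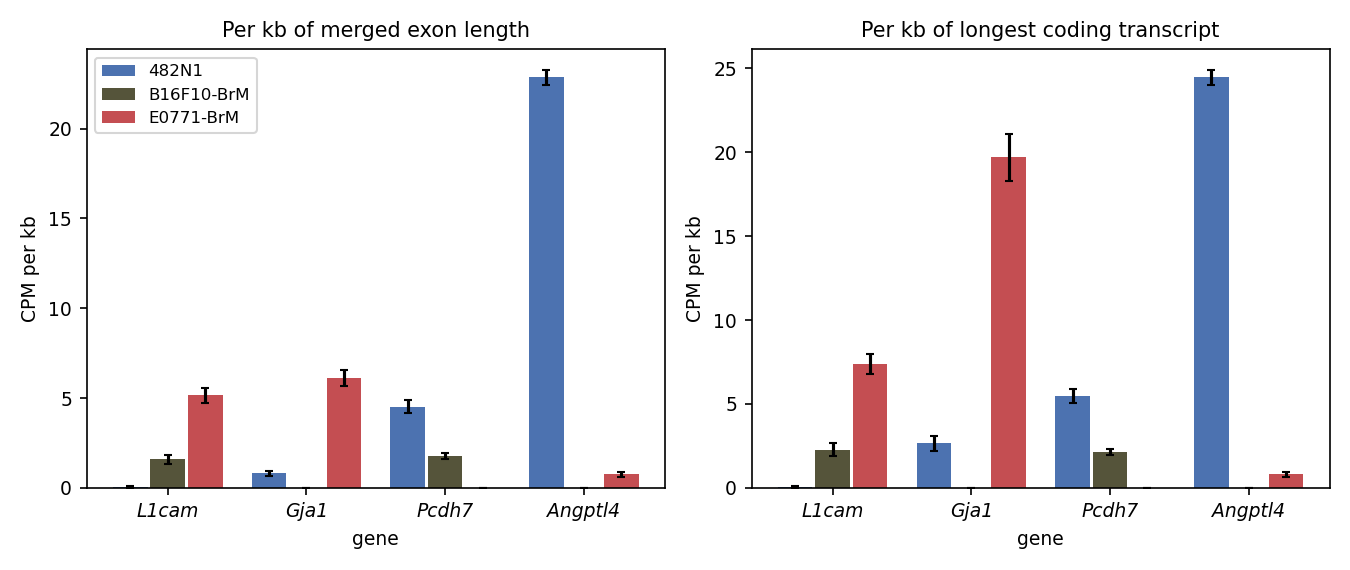
Mean level of each gene in each line as CPM per kb of merged exon length (left) and of the longest coding transcript (right), with SD of 3 libraries as error bars and both axes starting at 0. Angptl4 in 482N1 was the highest bar on both scales, and Gja1 in E0771-BrM moved from 6.11 to 19.7 CPM per kb with the length used.

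The genes whose pattern over the 9 libraries was most like each member were found among 10337 genes by the root mean square difference of log2 CPM values centred on each gene's mean, as a description without a test. Of the 5 nearest to each member, those named here are given with their distance in log2 units. For Angptl4 they were Col8a1 (0.268), Add2 (0.314), Cx3cl1 (0.368) and Btc (0.392), and Col8a1 had 2001 (482N1), 0 (B16F10-BrM) and 53 (E0771-BrM) counts, beside 1938, 0 and 65 for Angptl4. For Pcdh7 they were Gnpda2 (0.200), the transcription factors Foxo1 (0.220) and Irx3 (0.259), then Tmem176b (0.286) and Maf (0.321). For Gja1 they were Prkar1b (0.377), Arhgap22 (0.398), Fam83g (0.468) and Prrx1 (0.522). For L1cam they were Icam2 (0.321), Parp12 (0.479), Col16a1 (0.539), Gypc (0.540) and Aatk (0.553). No member was near another on this measure. The closest pair was Gja1 and Angptl4 at 3.16 log2 units, both at 0 in B16F10-BrM, and the others lay between 4.07 (L1cam and Gja1) and 5.97 (Gja1 and Pcdh7). These 9 values are 3 lines with 3 libraries each, so any 2 genes with the same order and size of line differences score as alike.

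**Figure D5:**
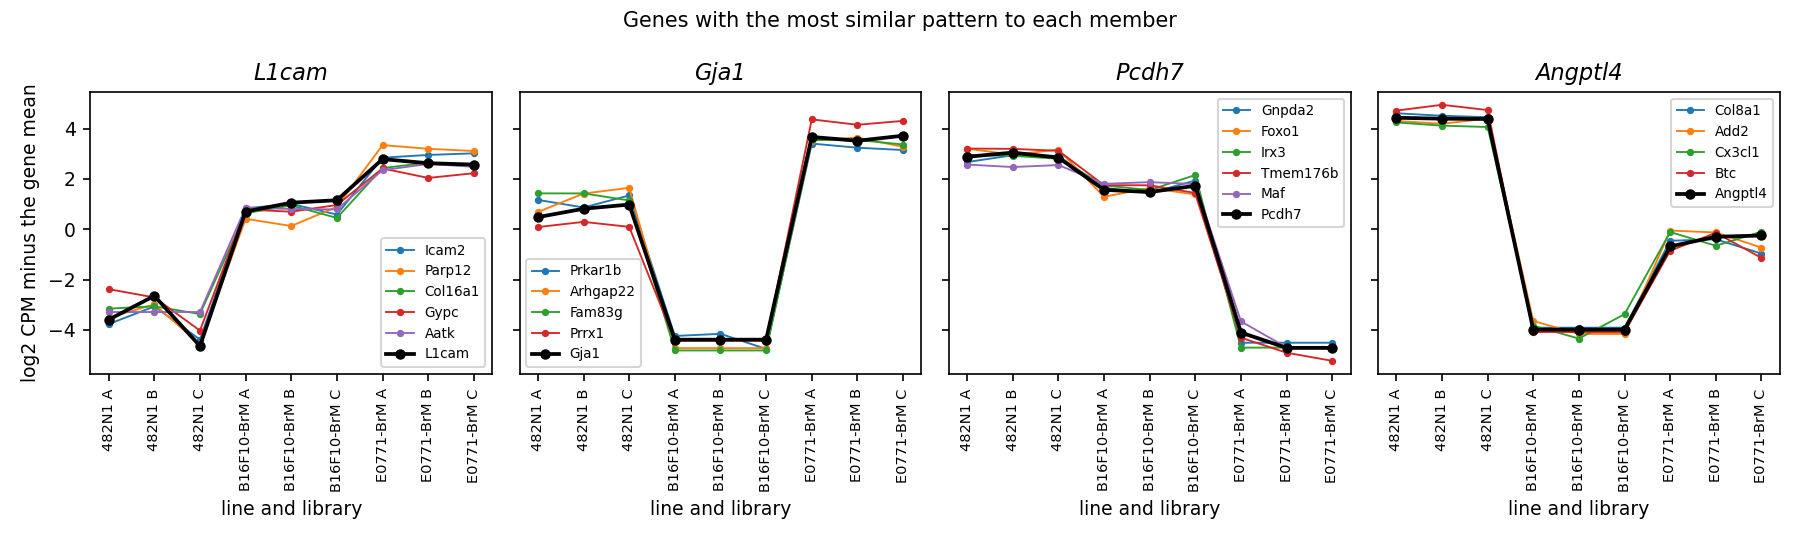
Log2 CPM minus the gene's own mean (y axis) in the 9 libraries (x axis) for each member, in black, and 4 or 5 of the genes nearest to it, in colour. Col8a1 lay 0.268 log2 units from Angptl4 on average (root mean square), and the L1cam values in 482N1 rest on 2, 6 and 0 counts.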

How the data were processed

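Poly(A) RNA of 9 libraries, 3 per line, was sequenced after TruSeq stranded preparation. The deposited values are raw counts of reads for each gene, made by the authors. The submitters' processing notes name FastQC, TopHat2 2.0.10, Bowtie 1.0.0, SAMtools 0.1.19, Cufflinks 2.2.1 and build GRCm39. The tool that counted reads, the annotation, the use of strand and the selection of genes are not given in the sources used here. Genes outside the table were not analysed here, and their absence was not read as lack of expression.

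The analysis used edgeR 4.0.16 under R 4.3.3. Of 11046 genes, filterByExpr removed 9 and left 11037, with all 4 members among them. Library sizes were scaled by TMM (factors 0.885 to 1.07), and a model with a coefficient for each line was fitted to the 9 libraries together, with robust quasi-likelihood dispersions. Lines were compared by 2-sided F tests, in pairs and jointly, with Benjamini-Hochberg adjustment over all genes tested and a threshold of 0.05. Levels are CPM with the SD of 3 libraries, and differences are log2 fold changes with SE. Where a line had no count, the fold is given against a floor of 3 counts over the 3 libraries, and with 1 to 3 counts as a ratio with a 95% exact interval. Only counting error enters these intervals and floors, and PCR copies cannot be told from separate molecules without identifiers. No same-line pair of libraries was alike within sampling noise (chi-square per gene 3.92 to 7.56).

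Alternatives were DESeq2 1.42.0, limma-voom 3.58.1, other size factors and filters, a fit of the 2 lines compared, a block for the library letter, a 2-fold threshold, removal of 3 ribosomal RNA genes, and leaving out libraries. The named genes are the 4 members, the 5 genes nearest in pattern to each, and, of each list, named partners and up to 5 genes of largest change. The members and lists were chosen with earlier results of these data known. Promoter windows came from RefSeq (GRCm38.p6) and gene lengths from GENCODE M21. A few genes that these rules select are not reported here.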

Additional observations from a re-analysis of the deposited data

How the results depend on the processing

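The 4 members kept their direction and their call in all 3 pairwise comparisons under all 20 alternatives, and in the joint test under all 18. Their highest adjusted p over these was 0.00322, for Pcdh7 in B16F10-BrM against 482N1 when tested against a 2-fold change. That threshold moved the number of genes called to 3477 in B16F10-BrM against 482N1, 3342 in E0771-BrM against 482N1 and 2905 in E0771-BrM against B16F10-BrM, since it asks for a larger difference. Leaving out 1 library at a time gave 8233 to 8600, 8282 to 8615 and 7780 to 8191 genes in the same order, and 10003 to 10049 in the joint test. Between lines, deviations of same-letter libraries correlated at -0.00992 to 0.0898, and those of libraries with different letters at -0.0752 to 0.037. Whether the letters pair samples cannot be told from these small values. With the letter as a replicate block, the adjusted p was 1.03e-18 for L1cam in E0771-BrM against 482N1 and 2.52e-11 for Pcdh7 in B16F10-BrM against 482N1, 8595, 8623 and 8162 genes were called in the same order, and no call of a member changed. The log2 fold change of L1cam over 482N1, which rests on 8 counts, ranged from 3.98 to 6.35 for B16F10-BrM and from 5.65 to 8.05 for E0771-BrM. Among 321 comparisons of list and marker genes, 113 changed call with the 2-fold threshold and 30 with library B alone for 482N1 and E0771-BrM, where Krt18 was no longer called in E0771-BrM against B16F10-BrM, with 0 counts in the libraries of both lines. The other alternatives changed 0 to 9 calls each, where the fit of the 2 lines compared covered 310 of these comparisons.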
